A study of Mus musculus with 38 samples.

Results

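Ribosome footprints from the vicinity of TurboID-PSD95 were compared between depolarized and resting primary cortical neurons of the mouse. The comparison rests on 6 of the 38 libraries of the series, the streptavidin pulldowns whose titles name PSD95 as the bait, 3 from depolarized and 3 from resting neurons. The depolarized neurons were silenced for 2 h with tetrodotoxin, which blocks sodium channels, and DL-AP5, which blocks NMDA receptors. They were then kept in 55 mM KCl for 1 h and allowed to recover for 30 min before harvest. The resting neurons had no KCl, and the labels name the silencing only with depolarization. Both groups carried a lentivirus encoding TurboID-PSD95 under a doxycycline-inducible promoter, and both received cycloheximide for 2 min and biotin for 30 min. The neurons came from embryos of outbred CD-1 mice, several dishes were combined in each library, and the bait was added to the neurons' own PSD95. The PSD95 inputs, which hold all monosomes of the same lysates, and the pulldowns of Pan-TurboID, a ligase with no localization signal, served as comparisons with 6 libraries each.

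TurboID is a biotin ligase that labels proteins in its close surroundings. PSD95 is the main scaffold of the excitatory postsynaptic density, and ribosomes labelled by TurboID-PSD95 are taken to be those near it in dendrites. Depolarization opens voltage-gated calcium channels, and calcium-dependent kinases then act on transcription factors such as CREB and SRF that already sit on DNA. Their targets, the immediate early genes, need no protein synthesis for their induction. Many of these genes encode further transcription factors, and others encode proteins that act at synapses, such as Arc, or that switch the signal off, such as the phosphatases of MAP kinases. A footprint count reflects the amount of an mRNA as well as the number of ribosomes on it. No RNA-seq libraries were analysed here, so these cannot be told apart. Nor can fewer cells of a type be told apart from less RNA per cell.

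The 6 libraries held 7678561 to 23120125 counts over all segments, of which 2047327 to 7324032 lay in coding sequence (CDS) of the transcript used for each gene, its longest. Between pairs of replicates the chi-square per gene was 9.61 to 45.6, above what counting error alone gives. Depolarized replicate 2 stood apart from the others, with 18.7% of its footprints in 5′ UTRs against 5.31% to 10.3% in the other 5 libraries. All 8 neuron markers passed the filter on low counts, and their summed level was 7270 to 8150 CPM (normalised read count, scaled to a common library size) in resting and 5840 to 6900 CPM in depolarized pulldowns. Of these only Tubb3 was called, and it was lower. None of the 5 markers of excitatory neurons, the 5 of inhibitory neurons, the 7 tested of 8 astrocyte markers, the 7 tested of 8 markers of the oligodendrocyte lineage or the 1 tested of 5 endothelial markers was called. The astrocyte markers summed to 711 to 1460 CPM in resting and 862 to 973 CPM in depolarized pulldowns, with S100b at 0. Markers of the oligodendrocyte lineage summed to 137 to 519 CPM and 115 to 210 CPM. The summed level of the 8 microglia markers was at most 4.47 CPM, none of them passed the filter, and C1qb and Tyrobp were at 0.

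To find which mRNAs changed in ribosome occupancy near PSD95, CDS counts were compared with the quasi-likelihood test of edgeR. A gene was called at a Benjamini-Hochberg adjusted p under 0.05, and adjusted p-values below come from that test unless another is named. Of 13004 genes tested, 417 (3.21%) were higher and 438 (3.37%) were lower after depolarization, while 2815 had an unadjusted p under 0.05. The median log2 fold change of all genes was 0.02, since the scaling of the libraries sets the typical change near 0. Rises and falls are thus relative to the other genes, and a change in total ribosome occupancy could not be seen. The groups did not overlap for 359 (86.1%) of the genes called higher and 430 (98.2%) of those called lower, against 19.9% of all genes tested. The number of calls depended on the libraries. It was 1445, 109 and 92 without replicate 1, 2 or 3 of every group, 1479, 532 and 531 without depolarized pulldown 1, 2 or 3, and 500, 564 and 395 without resting pulldown 1, 2 or 3. With the 6 libraries alone in the fit, 118 genes were called.

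The gene lists below were chosen with earlier results of these data known, so their shares describe the members and are not independent evidence. The immediate early transcription factors had the highest share of called members and the highest median of the lists examined. Of 28 members tested, 19 were called higher and none lower, against 3.21% and 3.37% of all genes, with a median log2 fold change of 2.63. The Egr family encodes zinc finger factors that relay activity to later target genes, and its 4 members were all called. Footprints on Egr2 (chromosome 10, CDS from 67538221 to 67540988 of mm10) were 102.2, 189.8 and 144.9 CPM in the depolarized and 2.85, 4.95 and 3.97 CPM in the resting pulldowns. The lowest depolarized library lay far above the highest resting one, and the gene rose 38.1-fold, a log2 fold change of 5.25 ± 0.39 (SE, adjusted p = 2.61e-09). Egr1 was at 863.3, 2178 and 1758 CPM after depolarization and at 69.5, 81.8 and 130.5 CPM at rest. It rose by 4.10 ± 0.35 on the log2 scale (adjusted p = 2.41e-08), with replicate 1 the lowest of the depolarized libraries. Egr4 rose by 3.61 ± 0.37 and Egr3 by 2.89 ± 0.33, both with groups that did not overlap.

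The AP-1 factors are dimers of Fos and Jun proteins. Junb was at 313.4, 1241 and 813.0 CPM in depolarized and 33.6, 69.1 and 39.7 CPM in resting pulldowns, a log2 fold change of 4.05 ± 0.37. Fosb was at 215.3, 721.8 and 405.9 CPM against 16.9, 56.0 and 25.8 CPM, a log2 fold change of 3.77 ± 0.49. Fos was at 799.0, 2188 and 1817 CPM against 77.0, 219.0 and 164.7 CPM, a log2 fold change of 3.39 ± 0.41. In each of the 3 genes depolarized replicate 2 was the highest library and replicate 1 the lowest of its group, and all depolarized values exceeded all resting ones. Jun rose by 2.85 ± 0.53 (adjusted p = 0.00264), and its depolarized values of 156.7, 1158 and 335.7 CPM spread widely, again with replicate 2 on top. Fosl1 was called as well, at levels of at most 12.7 CPM. Jund and Fosl2 were not called, with log2 fold changes of 0.00 ± 0.35 and 0.28 ± 0.32.

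Nr4a1, an orphan nuclear receptor, was at 1073, 985 and 1216 CPM in depolarized and 49.5, 77.7 and 122.6 CPM in resting pulldowns. It rose 13.3-fold, by 3.73 ± 0.40 on the log2 scale (adjusted p = 1.88e-06). Nr4a2 rose by 1.01 ± 0.28, while Nr4a3 had a log2 fold change of 0.52 ± 0.22 and was not called. Npas4, a neuron-specific factor that responds to calcium influx, was at 242.8, 367.5 and 518.0 CPM against 40.7, 68.3 and 79.9 CPM. Its groups did not overlap, and it rose 6.05-fold (adjusted p = 1.48e-06). Ier2 rose by 2.99 ± 0.27, Btg2 by 2.66 ± 0.43, Klf4 by 2.70 ± 0.61 and Maff by 1.69 ± 0.44. Crem, which encodes activators and repressors that bind the same sites as CREB, rose by 1.34 ± 0.35. Atf3 and Ier5 were called although their groups overlapped. Per1, Klf6, Nfil3, Csrnp1, Bhlhe40 and Ier3 completed the 9 members that were not called, with log2 fold changes of 0.02 for Per1 up to 1.03 for Bhlhe40 and, above that, an adjusted p of 0.0555 for Ier3.

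The count for this list was 14 without depolarized replicate 2, 18 with the trend with CDS length removed, and 12 without replicate 2 or without replicate 3 of every group. The median change between same-numbered libraries, on the scale of log2(CPM + 1), was 1.54, 2.57 and 2.31 in pairs 1, 2 and 3, where that of all genes was -0.09, 0.04 and 0.02. In the PSD95 inputs 18 of the 28 members were called higher, against 1.76% of all genes, and in the Pan pulldowns 17 were, against 1.9% of all genes. None was called lower in either, where 2.41% and 3.15% of all genes were. The response of no member differed by test between PSD95 pulldowns and inputs, the smallest unadjusted p being 0.145.

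**Figure D1:**
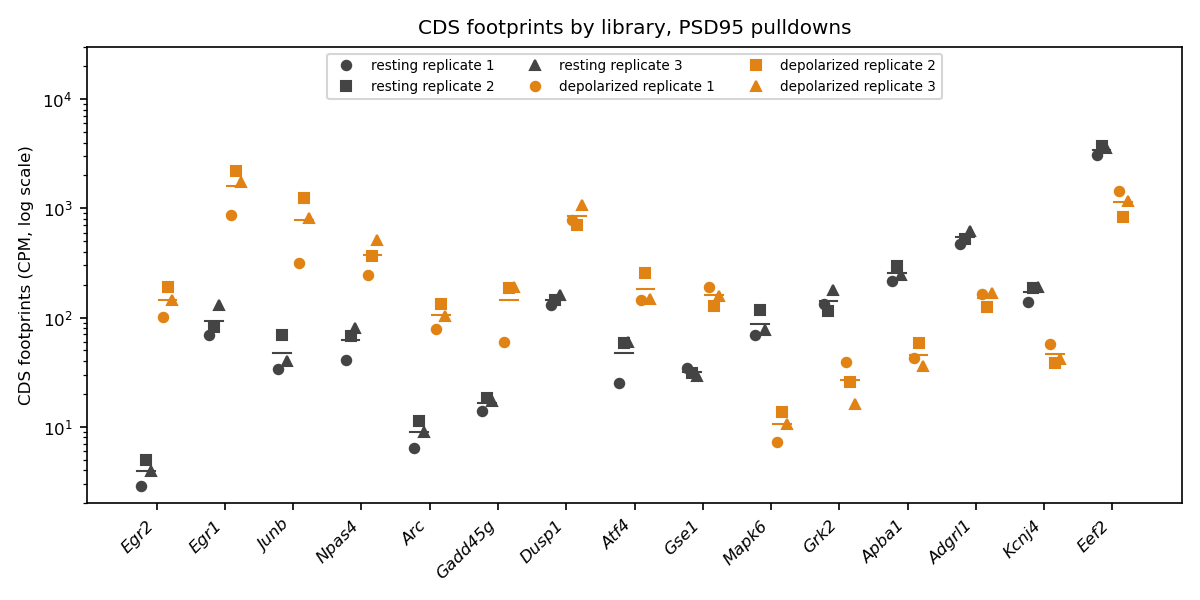
CDS footprints of 15 genes in each PSD95 pulldown library (CPM, log axis), with resting libraries in grey, depolarized libraries in orange, symbols for the replicate number and a line at the mean of each group. The 3 depolarized and 3 resting values do not overlap in any of the 15 genes, of which 9 are higher and 6 lower after depolarization. Among the higher genes depolarized replicate 1 is the lowest of its group in Egr1, Egr2, Junb, Npas4, Arc, Gadd45g and Atf4, but not in Dusp1 or Gse1.

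CREB binds the cyclic AMP response element, and SRF binds the serum response element. The RefSeq promoter windows of GRCm38.p6, the assembly of mm10, run from 250 bases before to 50 bases after each annotated start, and they were searched on both strands. Windows were at hand for 22 of the 28 immediate early transcription factors. They were at hand for 16 of 26 synaptic and secreted effectors and 20 of 25 feedback inhibitors. Egr1, Egr3 and Arc were among the called genes without a window and were not searched. The full cyclic AMP response element TGACGTCA lay in 2 of the 32 windows (6.25%) of the immediate early transcription factors, in 17.4% of those of the synaptic and secreted effectors and in 13.6% of those of the feedback inhibitors described below. It lay in 1.79% of all 32851 windows and in 3.13% of the windows of the genes tested. Its core TGACG, which is part of the full element, lay in 71.9% of the windows of the immediate early factors, against 20.8% of all windows and 30.9% of those of the genes tested. The AP-1 element TGANTCA was in 1 of the 32 windows of the immediate early factors (3.12%), in 7.81% of all windows and in 4.69% of the windows of the genes tested. Among all genes called, the core lay in 40.0% of the windows of the higher and 28.2% of those of the lower genes. Such matches describe the sequence and do not show that a factor bound there.

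The full element lay in windows of 2 immediate early factors, 4 effectors and 3 feedback inhibitors, of which 2, 1 and 2 were called higher. The 5 full elements found in called genes of these 3 lists are given with 10 bases on either side, each on the strand of its gene and with the element in capitals. They belong to Btg2 (chr1:134079304-134079331, minus strand, 166 bases before the start), Dusp1 (chr17:26508598-26508625, minus strand, 143 bases before the start), Errfi1 (chr4:150855009-150855036, plus strand, 51 bases before the start), Maff (chr15:79347481-79347508, plus strand, 29 bases before the start) and Plk2 (chr13:110394972-110394999, plus strand, 62 bases before the start).
Btg2: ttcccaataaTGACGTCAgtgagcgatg
Dusp1: gtagggcgggTGACGTCAccgcccggtc
Errfi1: ctgcgggcgtTGACGTCAcgttgtcgct
Maff: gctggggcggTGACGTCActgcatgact
Plk2: gcgctcgccgTGACGTCAcgaggccccg
These 5 genes rose by 2.66, 2.55, 1.03, 1.69 and 1.16 on the log2 scale in that order. The flanks of 10 bases differed as a whole from gene to gene, but the base after the element was C in all but Btg2.

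The serum response element, searched by its consensus known as the CArG box, lay in 4 of the 32 windows of the immediate early factors (12.5%) and in 1.63% of all windows. All 4 windows belonged to Egr2, the gene with the highest fold change of the list and 1 of its 22 genes with a window. Together these windows held 2 different sites. Both are shown with the element in capitals, on the plus strand, at chr10:67537484-67537513 and chr10:67537787-67537816, 72 to 133 bases before annotated starts of the gene.
Egr2 first site: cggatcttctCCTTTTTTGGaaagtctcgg
Egr2 second site: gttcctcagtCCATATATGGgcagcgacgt

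Of 26 activity-regulated synaptic and secreted effectors tested, 7 were called higher and none lower (26.9% and 0%, against 3.21% and 3.37% of all genes), with a median log2 fold change of 0.52. The count was 7 without depolarized replicate 2 and 4 without replicate 3 of every group. A lower call, 1 each time, appeared without depolarized replicate 1, resting replicate 3 or replicate 1 of every group. The same number appeared with replicate number as a block, by the likelihood ratio test and with DESeq2. Arc, which drives endocytosis of AMPA receptors (chromosome 15, CDS from 74671182 to 74672372), was at 79.4, 132.4 and 103.9 CPM in depolarized and 6.37, 11.4 and 8.93 CPM in resting pulldowns. Every depolarized value was at least several times the highest resting one, and Arc rose 12-fold (log2 fold change 3.59 ± 0.30, adjusted p = 9.14e-09). Gadd45g and Gadd45b encode stress sensors that act in DNA demethylation. They rose by 3.16 ± 0.33 and 2.59 ± 0.28. Nptx1, a secreted pentraxin that clusters AMPA receptors, was at 174.3, 168.8 and 177.7 CPM against 45.7, 79.0 and 45.7 CPM. Its depolarized libraries lay close together, and it rose by 1.61 ± 0.24. Plk2, a kinase that weakens synapses after prolonged activity, rose 2.23-fold from 220.6, 290.9 and 216.8 CPM to 494.9, 552.8 and 574.8 CPM, and Ccn1 rose by 1.94 ± 0.46.

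Homer1, a scaffold whose short form is made after activity, was at 85.6, 32.5 and 17.6 CPM in depolarized and 10.3, 17.4 and 14.9 CPM in resting pulldowns. Replicate 1 alone stood well above the resting libraries. Its longest transcript has a CDS of 561 bases, on which the log2 fold change was 1.65 ± 0.47 (adjusted p = 0.0337). On the transcript with the highest count, whose CDS spans 1101 bases, the change was 0.89 ± 0.37 and was not called (adjusted p = 0.151). The 2 transcripts have different CDSs, so the second value is not a repeat of the first. The neurotrophin Bdnf was not called, at 71.6, 79.7 and 63.8 CPM in depolarized and 54.6, 79.0 and 53.1 CPM in resting pulldowns. Its groups overlapped, and its log2 fold change was 0.20 ± 0.25. Nptx2, Vgf, Scg2 and Nrn1 had log2 fold changes of 0.53 ± 0.42, 0.10 ± 0.32, 0.41 ± 0.18 and 1.21 ± 0.40 and were not called either.

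Feedback inhibitors of MAP kinase, G protein and CREB signalling gave 6 higher and 1 lower call among 25 members (24% and 4%, against 3.21% and 3.37% of all genes), with a median of 0.27. The higher calls numbered 4 without depolarized replicate 2, 9 without depolarized replicate 1, 4 without resting replicate 3, 3 without replicate 2 and 2 without replicate 3 of every group, and 3 with the 6 libraries alone. Dusp1, a nuclear phosphatase of MAP kinases (chromosome 17, CDS from 26506280 to 26508323), was at 775.1, 697.2 and 1078 CPM in depolarized and 129.3, 146.2 and 161.8 CPM in resting pulldowns. The groups were widely separated with little spread inside them, and the gene rose 5.84-fold (adjusted p = 9.14e-09). Trib1, a pseudokinase that directs proteins to degradation, was at 98.1, 69.3 and 85.1 CPM against 19.0, 21.96 and 14.9 CPM and rose by 2.15 ± 0.29. Its change was 1.35 ± 0.27 in inputs and 1.37 ± 0.27 in Pan pulldowns, and the difference from the inputs, 0.80 ± 0.39, did not pass the test over all genes. Dusp14 rose by 1.80 ± 0.35, Sik1, a kinase that restrains CREB co-activators, by 1.29 ± 0.24, Dusp6, a phosphatase of ERK, by 1.11 ± 0.24 and Errfi1, an inhibitor of EGF receptor signalling, by 1.03 ± 0.30. Dusp8 was the 1 lower call, a share near that of all genes, and no lower call was made without replicate 2 or 3 of every group or with the 6 libraries alone. It was at 112.1, 95.6 and 88.4 CPM in depolarized and 166.5, 215.3 and 186.6 CPM in resting pulldowns and fell by 0.94 on the log2 scale (adjusted p = 0.00243).

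Of the 33 tested members of the MAP kinase cascade and the G protein receptor kinases, 7 were called lower and none higher (21.2% and 0%, against 3.37% and 3.21% of all genes), with a median of -0.37. This list, too, was chosen with earlier results of these data known. Mapk6 encodes the atypical kinase ERK3 (chromosome 9, CDS from 75388052 to 75398133). It was at 7.26, 13.6 and 10.6 CPM in depolarized and 69.1, 116.9 and 77.4 CPM in resting pulldowns. Every depolarized library was well below every resting one, and Mapk6 was 8.03-fold lower (log2 fold change -3.01 ± 0.34, adjusted p = 1.69e-06). Grk2, which phosphorylates active G protein-coupled receptors (chromosome 19, CDS from 4287100 to 4306014), was at 38.9, 25.5 and 16.1 CPM against 132.0, 115.6 and 180.6 CPM, 5.39-fold lower. Its change was -1.52 ± 0.27 in the inputs and -2.07 ± 0.27 in the Pan pulldowns, and the difference from the inputs, -0.91 ± 0.38, did not pass the test.

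The other lower genes of the cascade included Map3k10 (-1.55 ± 0.29), Mapk10 (-1.20 ± 0.29), which encodes the neuronal JNK3, Ksr2 (-0.96 ± 0.29) and Mapk9 (-0.87 ± 0.23), as log2 fold changes. Mapk3, which encodes ERK1, was not called and had a log2 fold change of -0.16 ± 0.17. Without depolarized replicate 2 or 3, 4 and 3 members of this list were called lower, without resting replicate 3, 4 were, without replicate 2 or 3 of every group, 3 and 2 were, and with the 6 libraries alone 2 were.

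The integrated and endoplasmic reticulum stress response list had 10 members called higher and none lower of 22 tested (45.5% and 0%, against 3.21% and 3.37% of all genes), and all 22 had positive log2 fold changes, with a median of 0.98. Atf4, the transcription factor of the integrated stress response (chromosome 15, CDS from 80256299 to 80257460), was at 144.7, 255.9 and 148.9 CPM in depolarized and 25.1, 58.4 and 59.5 CPM in resting pulldowns. The groups did not overlap, and it rose 3.91-fold (adjusted p = 0.00114). Ppp1r15a encodes GADD34, which returns eIF2 to its unphosphorylated state, and it rose from 7.995, 20.5 and 18.9 CPM to 69.5, 73.9 and 48.6 CPM, by 2.06 ± 0.35. Sesn2, which restrains mTORC1, rose by 1.71 ± 0.31, with depolarized replicate 1 the highest library. Trib3, Atf5 and Ddit4, known targets of ATF4, rose by 1.82 ± 0.51, 1.26 ± 0.32 and 0.97 ± 0.29. In the endoplasmic reticulum branch Herpud1 rose by 1.30 ± 0.21, Dnajb9 by 1.22 ± 0.28, Hspa5, the main lumenal chaperone, by 0.98 ± 0.18 and Xbp1 by 0.83 ± 0.24. Ddit3, which encodes CHOP, had a log2 fold change of 1.21 ± 0.50 and was not called (adjusted p = 0.148).

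The median change of this list was 1.07, 0.79 and 0.94 in pairs 1, 2 and 3. Without depolarized replicate 2, 6 members were called, without resting replicate 1, 5 were, without replicate 2 or 3 of every group, 5 and 1 were, and with the 6 libraries alone 3 were. In inputs 8 of the 22 were called higher, against 1.76% of all genes, and in Pan pulldowns 12 were, against 1.9%. Of 22 heat shock chaperones 1 was called higher and 2 lower (4.55% and 9.09%, against 3.21% and 3.37% of all genes), and the numbers were 0 and 1 without depolarized replicate 2 or 3 or resting replicate 1 or 3, and 2 and 2 without depolarized replicate 1. None was called without replicate 2 or 3 of every group or with the 6 libraries alone. With all libraries Dnajb1, a co-chaperone, rose by 1.03 ± 0.26, while Hspa8, the constitutive cytosolic HSC70, and Hsp90ab1 fell by 0.76 and 0.99 on the log2 scale.

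**Figure D2:**
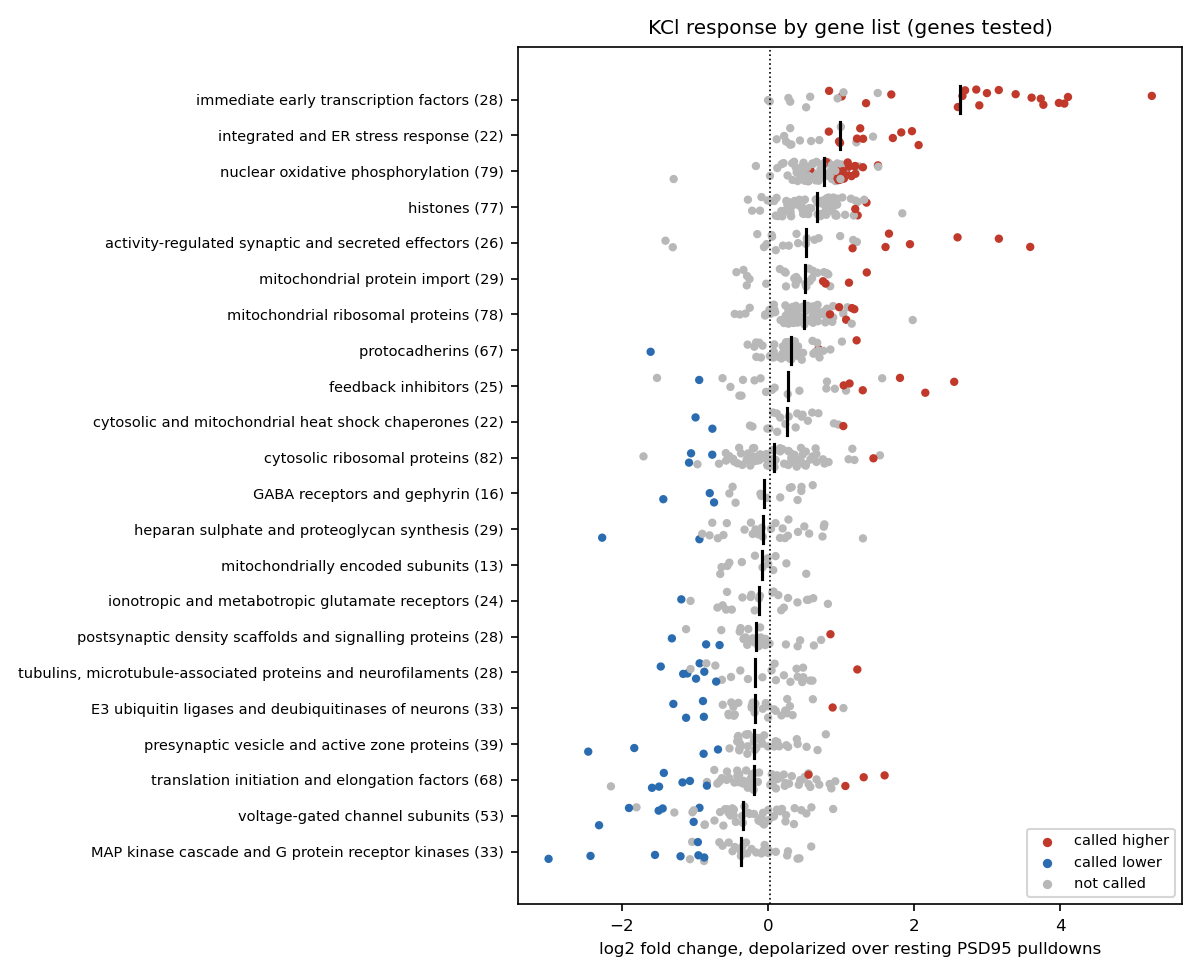
Log2 fold change of each tested member (points) of 22 gene lists in PSD95 pulldowns, depolarized over resting, with called genes in red (higher) and blue (lower), the list median as a black bar and the median of all genes, 0.02, as a dotted line. The immediate early transcription factors have the highest median, 2.63, and the MAP kinase cascade the lowest, -0.37; the numbers beside the names are the genes tested.

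Scaffolds and signalling proteins of the postsynaptic density hold receptors in place. Of 28 members, 1 was called higher and 3 lower (3.57% and 10.7%, against 3.21% and 3.37% of all genes), with a median of -0.17. The numbers were 1 and 3 without depolarized replicate 2, 1 and 1 without depolarized replicate 3 or resting replicate 2 and 0 and 2 without depolarized replicate 1 or resting replicate 1 or 3, and none was called without replicate 2 or 3 of every group or with the 6 libraries alone. Dlgap3, a scaffold that links PSD95 to Shank proteins, was at 26.5, 14.2 and 30.1 CPM in depolarized and 48.2, 48.0 and 78.4 CPM in resting pulldowns and fell by 1.32 on the log2 scale (adjusted p = 0.00386). Ppp1r9b, which encodes spinophilin, and Cnksr2 fell by 0.85 and 0.67, and Baiap2, an organizer of spine actin, rose by 0.85 ± 0.25. Of 24 glutamate receptor genes and their auxiliary subunits, 1 was called, lower (4.17%, against 3.37% of all genes). Without depolarized replicate 2, 1 gene of this list was called higher and none lower, without depolarized replicate 3 or any single resting replicate none was called, and without replicate 1 of every group 4 were lower. The gene called lower with all libraries was Cacng8, an auxiliary subunit of AMPA receptors, at 43.6, 27.8 and 22.8 CPM against 63.6, 75.8 and 72.5 CPM, a log2 fold change of -1.19 ± 0.34. Among 16 genes of GABA receptors and gephyrin, 3 were called lower (18.8%, against 3.37% of all genes). The count was 1 without depolarized replicate 2 or 3, without resting replicate 3, with the 6 libraries alone, with no filter on low counts or with the length trend removed, and 0 without replicate 2 or 3 of every group. Of these Gabra5 and Gabbr2 fell by 0.80 and 0.74 on the log2 scale. The medians of these lists were -0.12 and -0.06, and each list's median had opposite signs in pair 1 (0.34 and 0.35) and pair 2 (-0.55 and -0.54).

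The list of voltage-gated channel subunits gave 6 lower and no higher calls among 53 members (11.3% and 0%, against 3.37% and 3.21% of all genes), with a median of -0.35. It also holds inward rectifiers of the Kcnj family, which are not voltage-gated, so its share is not that of voltage-gated channels alone. The lower calls numbered 11, 5 and 5 without depolarized replicate 1, 2 or 3 and 13, 3 and 2 without replicate 1, 2 or 3 of every group, with 3 for the 6 libraries alone, 4 without resting replicate 3 and 11 by the likelihood ratio test, and 2 higher calls appeared with the length trend removed. Kcnj4, an inward rectifier potassium channel (chromosome 15, CDS from 79484440 to 79485777), was at 57.6, 38.6 and 41.9 CPM in depolarized and 137.4, 187.3 and 188.6 CPM in resting pulldowns. All depolarized values lay below all resting ones, and the gene was 3.75-fold lower (adjusted p = 7.01e-06). Kcns2, a silent subunit that modifies other potassium channels, was at 4.15, 4.28 and 5.17 CPM against 26.3, 18.7 and 22.8 CPM, 4.97-fold lower. Kcna4, an A-type potassium channel, fell by 1.44, and Cacna2d1 by 1.02 on the log2 scale, and Cacna1i, a T-type calcium channel, was 2.83-fold lower. Pair 1 had a median of 0.08 for this list, against -0.57 and -0.59 in pairs 2 and 3.

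Of 39 presynaptic genes 4 were called lower and none higher (10.3% and 0%, against 3.37% and 3.21% of all genes), with a median of -0.19. The lower calls numbered 4 without depolarized replicate 2, and 2 without depolarized replicate 3, resting replicate 2 or replicate 3 of every group or with the 6 libraries alone, and without replicate 1 of every group 2 genes were higher and 5 lower. Apba1, also called Mint1, an adaptor that binds Munc18 and the amyloid precursor protein (chromosome 19, CDS from 23892806 to 23945781), was at 43.1, 58.2 and 36.2 CPM in depolarized and 217.2, 298.8 and 247.6 CPM in resting pulldowns. The groups were far apart, and Apba1 was 5.51-fold lower (adjusted p = 5.13e-08). Adgrl1, an adhesion receptor known as latrophilin 1, was at 165.5, 125.5 and 166.2 CPM against 475.1, 526.6 and 624.2 CPM, 3.56-fold lower. Nrxn3 and Rims1 fell by 0.88 and 0.69 on the log2 scale. Of 29 genes of heparan sulphate synthesis and its proteoglycans, Hs3st1, a sulphotransferase, was 4.83-fold lower, at 17.6, 9.09 and 12.5 CPM against 56.0, 79.0 and 46.6 CPM, and Extl3 was the only other gene called, also lower (6.9% of the list, against 3.37% of all genes). The lower calls of this list numbered 1 without depolarized replicate 2 or 3, without resting replicate 1 or 3, with the 6 libraries alone or with the length trend removed, and 4 without depolarized replicate 1. Among 67 protocadherins Pcdh20 fell by 1.61, and Pcdhb9 and Pcdh1 rose by 1.21 and 0.69 on the log2 scale, shares of 1.49% lower and 2.99% higher that were under those of all genes. Among these 1 was higher without depolarized replicate 2 or 3 or any single resting pulldown, 3 were without depolarized replicate 1 or with the length trend removed, and none was with the 6 libraries alone. Of the 67 genes, 59 had positive log2 fold changes, with a median of 0.31 and medians of 0.71, -0.12 and 0.31 in pairs 1, 2 and 3. The clustered protocadherins share near-identical sequence, so their counts are uncertain.

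Of 68 translation factors 4 were called higher and 6 lower (5.88% and 8.82%, against 3.21% and 3.37% of all genes), with a median of -0.20. Without depolarized replicate 2 the numbers were 1 and 8, without replicate 2 of every group 1 and 5, and without replicate 3 of every group or with the 6 libraries alone 0 and 4. Without resting replicate 1 or 3 they were 2 and 7 or 2 and 5. The elongation factors made up 3 of the 6. Eef2, which moves the ribosome along the mRNA (chromosome 10, CDS from 81176727 to 81182082), was at 1449, 835.2 and 1159 CPM in depolarized and 3071, 3717 and 3570 CPM in resting pulldowns. Each depolarized library had less than the lowest resting one, and the gene was 3.01-fold lower (adjusted p = 6.85e-06). Eef1a2, the form of adult neurons, was at 458.6, 521.5 and 481.2 CPM against 1054, 1089 and 1153 CPM, and Eef1a1, which has near-identical copies, was at 499.6, 471.0 and 443.2 CPM against 1161, 1694 and 1123 CPM. They fell by 1.17 and 1.49 on the log2 scale. Pabpc1, which binds poly(A) tails, fell by 1.43, Eif3f by 1.07 and Eif4enif1 by 0.84. Eif1, which guards the choice of start codon, was at 25.9, 62.4 and 32.8 CPM against 8.81, 22.2 and 9.43 CPM and rose 3.02-fold (adjusted p = 0.00545), and Eif1b rose by 1.31 ± 0.36. Eif2ak3, which encodes the eIF2 kinase PERK, and Eif4a3 rose by 1.06 ± 0.24 and 0.55 ± 0.16. Of 82 cytosolic ribosomal proteins, which have many copies, 1 was higher (Rpl36al) and 3 lower (Rpl3, Rpl4 and Rpsa), 1.22% and 3.66%, below or near the 3.21% and 3.37% of all genes. The numbers were 3 and 2 without depolarized replicate 1, 0 and 2 without depolarized replicate 2, and 1 and 0 without depolarized replicate 3 or resting replicate 2. With the length trend removed they were 0 and 6, with the replicate block 4 and 3, by the likelihood ratio test 3 and 3, and none was called with the 6 libraries alone or without replicate 2 or 3 of every group.

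Eif4g2, a non-canonical initiation factor, was at 494.4, 530.7 and 509.8 CPM in depolarized and 374.8, 402.2 and 340.4 CPM in resting pulldowns. The groups did not overlap, but the log2 fold change of 0.46 ± 0.19 did not pass (adjusted p = 0.151). Dlg4, which encodes PSD95, had 360.1, 1445 and 5230 CPM against 1540, 1412 and 3145 CPM, with depolarized replicate 3 the highest and replicate 1 the lowest of all 6 libraries, and a log2 fold change of 0.21 ± 0.59. Its longest transcript has a CDS of 822 bases, and the transcript with the highest count, with a CDS of 2175 bases, gave 0.25 ± 0.57. Dlg4 was at 55.8 to 195.4 CPM in the PSD95 inputs and at 17.8 to 51.1 CPM in the Pan pulldowns, whose ligase has no localization signal. How many of the Dlg4 reads in PSD95 pulldowns come from the bait, which carries the PSD95 sequence of the rat, was not tested.

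Genes with short coding sequences tended to be higher, and lists of such genes are described with that in view. Over 7988 genes with a mean log2 CPM of at least 4, the log2 fold change fell with CDS length, with a Pearson r of -0.427 and a Spearman rho of -0.437; genes are not independent, and all share the same 6 libraries. In the shortest decile, CDSs of up to 480 bases, the median log2 fold change was 0.69, with 130 genes higher and 1 lower. In the longest decile it was -0.21, with 23 higher and 78 lower. Over 7831 genes the correlation of the change between same-numbered libraries with log2 CDS length was 0.0123 in pair 1, -0.544 in pair 2 and -0.322 in pair 3. Without depolarized replicate 2 the medians of the shortest and longest deciles were 0.27 and -0.08. Lists of longer genes shifted upward with the length trend removed. The median was then -0.007 for the postsynaptic density, with 1 higher and 2 lower calls, and 0.033 for the glutamate receptors. It was -0.263 for the MAP kinase cascade, with 5 lower calls, and 0.023 for the E3 ligases described below, with 1 higher and 2 lower. Why libraries differ in this trend was not tested.

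**Figure D3:**
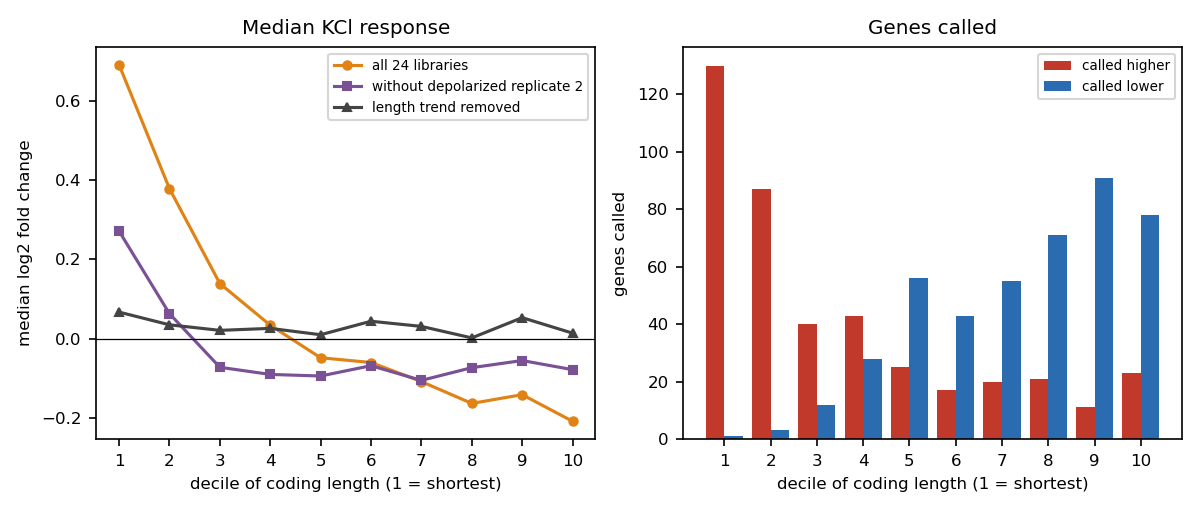
Left, the median log2 fold change of PSD95 pulldowns, depolarized over resting, by decile of CDS length with all 24 libraries of the fit (orange), without depolarized replicate 2 (purple) and with the length trend of each library removed (grey). Right, the number of genes called higher (red) and lower (blue) in each decile; the shortest decile has a median of 0.69 and 130 higher genes, and the longest -0.21 and 78 lower genes.

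The nuclear-encoded subunits of oxidative phosphorylation have a median CDS of 405 bases. Of 79 tested, 21 were called higher and none lower (26.6% and 0%, against 3.21% and 3.37% of all genes), with a median of 0.76. Ndufa5, of complex I, was at 101.7, 182.0 and 124.6 CPM in depolarized and 69.7, 56.0 and 86.3 CPM in resting pulldowns and rose by 0.96 ± 0.22 (adjusted p = 0.00864). Replicate 2 was again the highest depolarized library. Ndufc2 and Ndufa12, also of complex I, rose by 1.04 ± 0.25 and 1.02 ± 0.24, and Uqcrq, of complex III, by 1.19 ± 0.31. With the length trend removed 2 members were called, and the count was 3, 8 and 47 without depolarized replicate 2, 3 or 1 and 7, 13 and 2 without resting replicate 1, 2 or 3. With replicate number as a block 36 were called, without replicate 1, 2 or 3 of every group 44, 1 and 0, with the 6 libraries alone none, and with these 6 and the block 1. The median was 0.23, 0.97 and 0.85 in pairs 1, 2 and 3. The 13 mitochondrially encoded subunits gave no call and a median of -0.08, with medians of 0.69, -0.87 and 0.06 in the pairs.

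Mitochondrial ribosomal proteins gave 5 higher calls of 78 (median 0.50), mitochondrial import genes 4 of 29 (median 0.51) and histones 3 of 77 (median 0.67), and none of these lists had a lower call. The shares called higher were 6.41%, 13.8% and 3.9%, against 3.21% of all genes, so that of the histones was near the background. Their median CDSs were 577.5, 516 and 393 bases. With the length trend removed 0, 1 and 1 were called. Without depolarized replicate 1 the numbers were 20, 5 and 6, without depolarized replicate 2 they were 3, 0 and 0, and without depolarized replicate 3 they were 2, 2 and 2. Leaving out resting replicate 1, 2 or 3 gave 2, 0 and 1, then 1, 2 and 3, then 1, 0 and 0. Without replicate 1 of every group 22, 6 and 11 were called, and none was without replicate 2 or 3 of every group or with the 6 libraries alone. Mrps6 rose by 1.15 ± 0.24 and Timm8b by 1.35 ± 0.32. The histones called were H2afz, Hist2h2bb and H3f3b, whose near-identical copies make the counts uncertain. Histones had medians of -0.23, 0.69 and 1.01 in the 3 pairs.

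Of 28 tubulins, microtubule-associated proteins and neurofilaments, 1 was called higher and 7 lower (3.57% and 25%, against 3.21% and 3.37% of all genes), with a median of -0.18. Stmn4, a tubulin-binding stathmin, was at 435.8, 673.3 and 478.8 CPM in depolarized and 279.7, 200 and 201.5 CPM in resting pulldowns and rose by 1.22 ± 0.20. The lower genes were 6 tubulins and Nefh, the heavy neurofilament. Tubb3 was at 1666, 496.7 and 1574 CPM against 2951, 2422 and 2663 CPM, with depolarized replicate 2 far below the other 2 libraries of its group. Without that library 2 genes of the list were called lower, without resting replicate 1, 2 or 3, 2, 3 and 2 were, without replicate 2 or 3 of every group or with the 6 libraries alone none was, and with the length trend removed 3 were higher and 3 lower. Without depolarized replicate 1, 6 were higher and 10 lower, without replicate 1 of every group 4 and 5 were, and with the replicate block 2 and 11 were. Tubulins share long identical stretches, and reads may be split among them. Among 33 E3 ligases and deubiquitinases 1 was higher and 4 lower (3.03% and 12.1%, against 3.21% and 3.37% of all genes). The higher calls numbered 2 without depolarized replicate 1 and 0 without depolarized replicate 2 or any single resting pulldown. The lower calls numbered 1 without depolarized replicate 2 or resting replicate 2, 2 without depolarized or resting replicate 3, and 0 without replicate 2 or 3 of every group or with the 6 libraries alone. Peli1 was at 21.8, 24.3 and 26.4 CPM against 42.4, 71.1 and 66.5 CPM and fell by 1.30 on the log2 scale. Zinc finger genes of the Zfp series gave 5 higher and 4 lower calls of 345, near or under the 3.21% and 3.37% of all genes. The numbers were 1 and 8 without depolarized replicate 2, 9 and 5 without depolarized replicate 1, 1 and 4 without depolarized replicate 3 or resting replicate 1 or 2, and 0 and 3 without resting replicate 3. They were 6 and 2 with the length trend removed, 6 and 10 with the replicate block and 7 and 11 by the likelihood ratio test. With the 6 libraries alone 0 and 1 were called, and none without replicate 2 or 3 of every group.

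The remaining genes among the 12 with the smallest p in each direction belonged to no list. Gse1, a chromatin-associated protein (chromosome 8, CDS from 120489115 to 120578603), was at 190.9, 128.6 and 158.9 CPM in depolarized and 34.8, 31.0 and 29.3 CPM in resting pulldowns. Its resting libraries were nearly alike, and it rose 4.99-fold (adjusted p = 2.33e-08). Spty2d1, a histone chaperone, was at 123.5, 168.6 and 187.1 CPM against 22.9, 26.5 and 17.9 CPM, 7.05-fold higher. On the lower side the log2 fold change was -1.92 for Rundc3a, -1.86 for Dennd5a, an activator of Rab proteins, -1.69 for Mast2, a microtubule-associated kinase, -1.62 for Mprip, which binds myosin phosphatase, and -1.38 for Dgkd, a diacylglycerol kinase.

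Genes that the study names as raised or lowered by depolarization in dendrites were chosen on these samples and are not independent evidence of a direction. The study's measure was the pulldown relative to the mean of the PSD95 and Pan inputs, while the changes given here are those of the pulldown itself, so the directions are of different quantities. Of 19 tested from the raised group 2 were called higher, Atf3 among them, 10.5% against 3.21% of all genes, with a median of 0.45 over the group. The log2 fold change was positive in 15 of the 19 and negative in 4. Among the 4 was Rspo3, a secreted activator of Wnt signalling, at 0.519, 1.34 and 0.304 CPM in depolarized and 6.91, 3.23 and 4.47 CPM in resting pulldowns, a log2 fold change of -2.55 ± 0.83 that missed the threshold (adjusted p = 0.0627) and passed it with the likelihood ratio test and with the length trend removed. Rspo3 also had a log2 fold change of -2.12 ± 0.78 in the PSD95 inputs, and the difference of the pulldowns from them was -0.44 ± 1.13. Without depolarized replicate 2, resting replicate 3, replicate 2 or 3 of every group or with the 6 libraries alone no gene of the group was called, and 1 was called higher without depolarized replicate 3 or resting replicate 1 or 2. Atf3 was at 10.4, 79.7 and 37.1 CPM in depolarized and 0, 11.2 and 3.97 CPM in resting pulldowns, and its groups overlapped. Of 8 tested from the lowered group none was called by edgeR, all 8 had negative log2 fold changes and the median was -0.50.

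Footprints in 5′ UTRs were examined because the study asks whether depolarization engages upstream open reading frames. The 5′ UTR share of CDS and 5′ UTR footprints was 5.31%, 18.7% and 10.2% in depolarized and 5.70%, 10.3% and 6.54% in resting pulldowns. Its mean was 11.4% ± 6.79 (SD, n = 3) against 7.51% ± 2.44 (SD, n = 3), a difference of 3.9 percentage points that lay within the spread of replicates (exact two-sided permutation test, p = 0.7, where 0.1 is the smallest p that 3 against 3 allow). Pair 1 had nearly equal shares, and pairs 2 and 3 had the higher share after depolarization. The permutation test did not use the pairs. Counting used the 5′ end of each footprint with no offset, so ribosomes on the first codons of a CDS count in the 5′ UTR.

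Of 10174 genes tested on 5′ UTR counts, 29 (0.285%) were called higher and none lower after depolarization, and 1386 had an unadjusted p under 0.05. The median log2 fold change was 0.65. The direction depended on the scaling, since with library sizes and TMM factors of the 5′ UTR counts themselves 34 genes were called higher and 12 lower. In the PSD95 inputs the same test called 18 genes higher and 0 lower, with a median of 0.35. In the Pan pulldowns it called 15 higher and 0 lower, with a median of 0.28. The 5′ UTR change in PSD95 pulldowns differed from that in inputs or Pan pulldowns for 0 genes at an adjusted p under 0.05. Of the 29 genes called in PSD95 pulldowns, 11 were immediate early transcription factors, of 28 tested, and 4 were effectors, of 23 tested, against 0.285% of all genes. Fosb was at 138.0, 663.9 and 422.6 CPM in depolarized and 20.5, 36.0 and 29.8 CPM in resting pulldowns, an increase of 3.83 ± 0.55 on the log2 scale where its CDS changed by 3.77. Arc was at 23.4, 95.2 and 71.7 CPM against 5.29, 7.32 and 1.99 CPM, an increase of 3.64 ± 0.59 where its CDS changed by 3.59. In both genes depolarized replicate 1 was the lowest and replicate 2 the highest of its group. Junb rose by 3.62 ± 0.54, Egr4 by 3.71 ± 0.60, Gadd45b by 3.49 ± 0.58, Gadd45g by 3.10 ± 0.52 and Ier2 by 3.39 ± 0.61 in the 5′ UTR. Egr2 and Egr1 rose by 3.16 ± 0.58 and 2.43 ± 0.53 there and by 5.25 and 4.10 in the CDS.

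Fbxo33, which encodes a subunit of a ubiquitin ligase, was at 10.4, 14.04 and 8.51 CPM in the 5′ UTR after depolarization and at 0.407, 0.431 and 0.992 CPM at rest. It rose there by 4.34 ± 0.77 (adjusted p = 2.94e-04), while its CDS rose by 1.19 ± 0.29. Of the 29 genes, 8 were not called in the CDS: Fbxo46, Ssr2, Aldh4a1, Ackr3, Skil, Col6a1, Cln8 and Hpca. Fbxo46 had 9, 22 and 7 counts in its 5′ UTR after depolarization and none at rest, at least 14-fold higher against a floor of 3 counts over the resting group. Col6a1 had 5, 34 and 13 counts against none, at least 19.2-fold higher. Skil, a repressor of TGF-β signalling, was at 20.2, 36.9 and 23.4 CPM against 4.74, 8.40 and 5.95 CPM and rose by 2.09 ± 0.52, where the log2 fold change of its CDS was 0.63. Whether the 5′ UTR changed more than the CDS was not tested. The number of 5′ UTR calls was 5 with the 6 libraries alone, 312, 6 and 2 without replicate 1, 2 or 3 of every group, and 203 with replicate number as a block. In fits added after the data were seen it was 473, 14 and 25 without depolarized pulldown 1, 2 or 3 and 10, 52 and 13 without resting pulldown 1, 2 or 3.

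**Figure D4:**
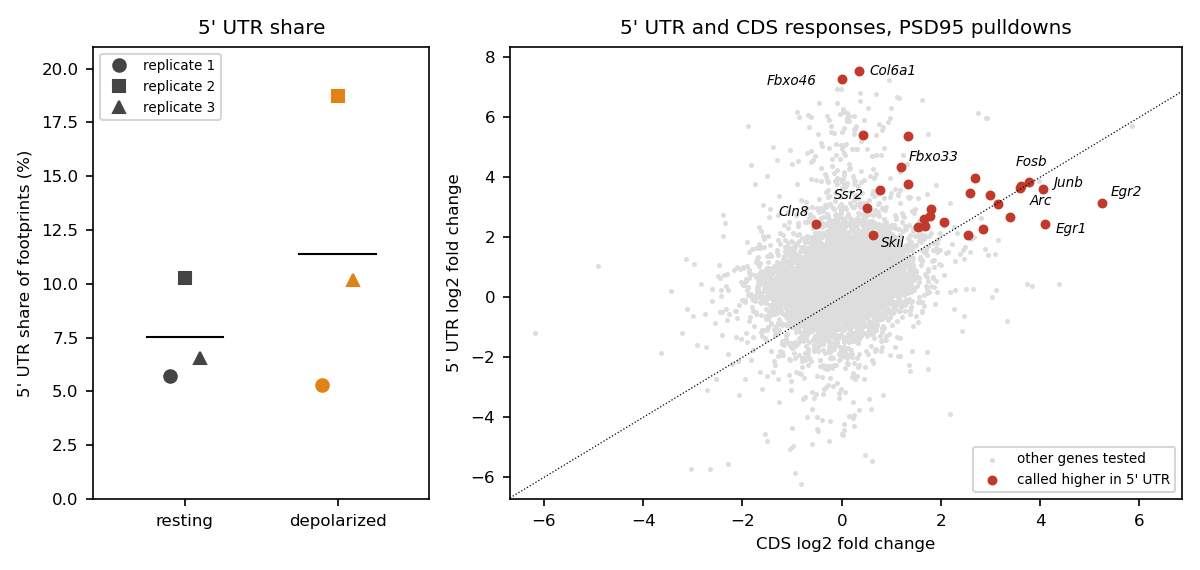
Left, the 5′ UTR share of footprints in each PSD95 pulldown library (percent, symbols for the replicate, lines at group means); depolarized replicate 2 has 18.7%. Right, the log2 fold change of 5′ UTR against CDS for each gene tested in both, with the 29 genes called higher in the 5′ UTR in red and a dotted line of equal change; Fbxo46, Col6a1 and Cln8 lie high above the line with CDS changes of 0.00, 0.36 and -0.52, and the heights of the first 2, which have no resting counts, depend on the prior count of the fit.

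To ask whether the response near PSD95 differed from that of the whole neuron, the change in PSD95 pulldowns was compared with that in the inputs of the same cultures and in the Pan pulldowns. Of the 417 genes higher in PSD95 pulldowns, 157 were also higher in inputs, 37.6% of the 417 and 68.6% of the 229 genes higher in inputs. For Pan pulldowns the number was 157 as well, 37.6% of the 417 and 63.6% of 247. Of the 438 lower genes, 206 were lower in inputs (47% of the 438 and 65.8% of 313) and 268 in Pan pulldowns (61.2% of the 438 and 65.5% of 409). None was called in the opposite direction in either. A gene called in one comparison and not in the other is not thereby shown to differ between them.

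The difference itself passed for no gene in edgeR's quasi-likelihood test, 0% of 13004 genes against the inputs and 0% against the Pan pulldowns. In each case 234 genes had an unadjusted p under 0.05, a share of the 13004 that is below the 0.05 expected with no difference at all. The smallest adjusted p was 0.242 against the inputs and 1 against the Pan pulldowns. The median SE of a difference was 0.475 against the inputs and 0.474 against the Pan pulldowns on the log2 scale, so that only large differences could have been resolved. The fit had no term for the lysate that a PSD95 pulldown shares with its input, so that pairing did not enter the SE. The differences of Arc from the inputs and from the Pan pulldowns were 0.17 ± 0.38 and -0.61 ± 0.39, those of Egr1 0.47 ± 0.44 and -0.23 ± 0.44, those of Dusp1 0.52 ± 0.28 and 0.07 ± 0.28, and those of Mapk6 -0.07 ± 0.48 and 0.19 ± 0.46. Each lay within about 2 SE of 0.

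Dgat1, which makes triacylglycerol, had the smallest p of the difference from the inputs. In PSD95 pulldowns it was at 4.67, 11.5 and 14.3 CPM after depolarization and at 34.4, 30.6 and 34.7 CPM at rest, and it fell by 1.66 on the log2 scale. In the inputs it was at 35.9, 19.6 and 19.4 CPM against 13.1, 19.1 and 16.2 CPM. The pulldown groups were well apart in one direction, and the input groups were nearer each other in the other. The difference was -2.26 ± 0.44 (edgeR adjusted p = 0.242), and the likelihood ratio test and DESeq2 called it at adjusted p of 0.0024 and 0.00395. Tubgcp4, a component of the γ-tubulin ring, and Gm49333 had differences of -1.63 ± 0.44 and -1.93. On the positive side Pcp4l1 differed by 3.88 ± 0.95, Itga2 by 5.16 ± 1.77 and Homer1 by 2.01 ± 0.66. Itga2 was at 10.4, 1.34 and 0.608 CPM against 3.93, 3.66 and 1.49 CPM in the pulldowns and at 0, 0 and 0.111 CPM in the depolarized inputs, so its difference rests on very few counts, and without depolarized replicate 1 its log2 fold change in the pulldowns turned from 0.27 to -1.59. That of Homer1 in the pulldowns was 0.85 without the same library and was not called.

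Against the Pan pulldowns, Pcp4l1 differed by 3.88 ± 0.99, with 5.19, 9.49 and 3.65 CPM in depolarized and 0.407, 0 and 0.496 CPM in resting PSD95 pulldowns. Cklf and Zfp101, both under 6 CPM in the PSD95 pulldowns, differed by 4.33 and 4.21. On the negative side Scamp2 and 1110012L19Rik differed by -1.40 and -1.60. Akr1c13 was at 0, 0 and 0.304 CPM in depolarized and 0.949, 1.29 and 0 CPM in resting PSD95 pulldowns, too few counts for its difference to be read. These genes had the smallest p-values of each direction, and none passed the adjustment.

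**Figure D5:**
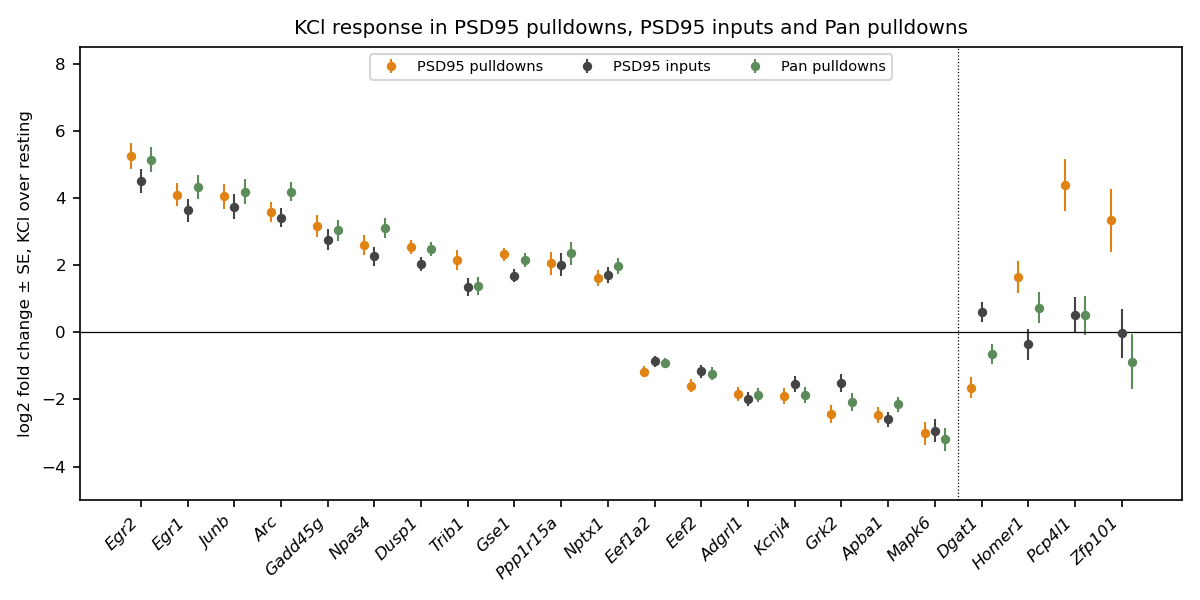
Log2 fold change after KCl with its SE for 22 genes in PSD95 pulldowns (orange), PSD95 inputs (grey) and Pan pulldowns (green). The 18 genes to the left of the dotted line lie on the same side of 0 in all 3 comparisons, while the 4 to the right, Dgat1, Homer1, Pcp4l1 and Zfp101, had among the smallest p-values for a difference and did not pass the adjustment.

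Called genes that passed in every one of the 21 alternative analyses numbered 51, of which 25 were higher and 26 lower. These comprised Egr1, Egr2, Egr3, Egr4, Fos, Fosb, Junb, Nr4a1, Npas4 and Ier2 of the transcription factors, Arc, Gadd45b, Gadd45g and Nptx1 of the effectors, and Dusp1 and Trib1 of the feedback inhibitors. The others among the higher genes were Ppp1r15a, Gse1, Spty2d1, Wsb1, Elmsan1, Pcf11, Cebpg, Akr1a1 and Cwc25. Cebpg, a partner of ATF4, rose by 1.73, Pcf11, which acts in transcription termination, by 1.74 and Wsb1, of a ubiquitin ligase, by 1.66. Elmsan1, a scaffold of histone deacetylases, was also called in the 5′ UTR, where it rose by 2.71 ± 0.54.

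On the lower side the 26 genes included Mapk6, Grk2, Apba1, Adgrl1, Hs3st1, Kcnj4, Kcns2, Pcdh20, Eef2, Eef1a1, Eef1a2 and Pabpc1, described above, with Rundc3a, Dennd5a, Mprip, Mast2 and Dgkd. The others, named because they passed throughout and chosen after their values were seen, included Sh3kbp1 (-2.44), Dpp8 (-2.31), Ulk2 (-2.02), Flrt2 (-1.79), Adamts15 (-1.54), Agpat1 (-1.46) and Thra (-1.20), as log2 fold changes. Thra encodes a thyroid hormone receptor and was at 96.0, 112.0 and 112.4 CPM in depolarized and 254.1, 218.5 and 265.0 CPM in resting pulldowns. Its groups did not overlap. Flrt2, an adhesion ligand of latrophilins and Unc5 receptors, was 3.45-fold lower.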

How the data were processed

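Monosomes from primary mouse cortical neurons were released with micrococcal nuclease, and ribosomes biotinylated by TurboID were isolated on streptavidin, with part of the monosomes kept as input. The authors trimmed reads, removed molecular identifiers, aligned to mm10 with Rsubread and counted footprint 5′ ends per transcript segment with plastid, without an offset. The deposited values are raw counts for each transcript's 5′ UTR, CDS and 3′ UTR. Of 67238 transcripts, 66750 matched the annotation used to attach gene symbols (99.3%), and the longest transcript of each of 22443 genes was kept.

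CDS counts of 24 libraries (resting and KCl-treated pulldowns and inputs of PSD95 and Pan, 8 groups of 3) were fitted together with edgeR 4.0.16 (R 4.3.3, limma 3.58.1) by its robust quasi-likelihood test with TMM scaling and the default filter on low counts. P-values were adjusted over all genes tested by the Benjamini-Hochberg method, with calls at 0.05. CPM values are TMM-scaled. 5′ UTR counts used the library sizes of the CDS counts. An SE is the log2 fold change divided by the square root of its F statistic. DESeq2 1.42.0 and the likelihood ratio test of edgeR were among the alternatives, as were other filters, scalings and transcripts, fits of fewer libraries, the replicate block and removal of a trend with CDS length. The tests were tried on simulated counts. The members and the gene lists were chosen with earlier results of these data known.

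Named genes were the 12 with the smallest p in each direction whose 3 same-numbered pairs all moved that way, up to 4 called genes per list, 3 per direction for each difference between comparisons, 8 for the 5′ UTR, Dlg4, Eif4g2 and genes the study names. Further list members, and genes called in every alternative, were named after their values were seen. By the methods, resting and activated samples of a replicate were processed together, so replicate numbers were taken to pair the samples. The pairs served for the changes between same-numbered libraries and for naming genes. The main fits had no replicate term, and the replicate block was an alternative. The deviations of same-numbered libraries from their group means correlated at 0.0288, 0.414 and -0.0638. Some genes are not reported here. P-values of the edgeR tests rest on the spread within groups over all 24 libraries of the fit, shared across genes. They do not measure the spread of the 6 PSD95 pulldowns alone, whose total counts ranged from 7678561 to 23120125.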

Additional observations from a re-analysis of the deposited data

Results flagged for a closer look

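Only the named genes were searched for opposite changes. In the following genes all 3 same-numbered pairs of PSD95 pulldowns changed one way and all 3 of the compared libraries the other way, and in none did the difference pass edgeR's quasi-likelihood test after adjustment over all genes. They had been named because such a difference had a small p, so opposite directions follow in part from that choice. The share over all genes was not counted. Against the inputs the log2 fold change differed by -2.26 for Dgat1, by -0.98 for Scamp2, a secretory carrier membrane protein, and by -1.63 for Tubgcp4. Against the Pan pulldowns it differed by 4.33 for Cklf, a chemokine-like factor, by -1.4 for Scamp2 and by 4.21 for Zfp101. Cklf and Zfp101 had low counts in every PSD95 pulldown, with at most 5.71 and 3.88 CPM.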

How the results depend on the processing

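Of the 92 named called genes, 32 to 92 stayed called in the same direction in each of 21 alternatives. The 855 CDS calls became 1371 with DESeq2, 118 with the 6 libraries alone and 228 with these and a replicate block, and ranged from 92 to 1479 when a replicate or library was left out. They numbered 1254 with the replicate block in the fit of 24 libraries, of which 854 were shared, and 681 with the CDS length trend removed, of which 505 were shared. The 29 calls in 5′ UTRs became 158 with the likelihood ratio test, 238 with DESeq2, 46 (34 higher and 12 lower) with 5′ UTR library sizes, 203 with the replicate block and 5 with the 6 libraries alone, and ranged from 2 to 473 when a replicate or library was left out, of which the fits without 1 pulldown were chosen after seeing the data. Against the inputs the likelihood ratio test and DESeq2 each called 1 gene and the other alternatives 0, and against the Pan pulldowns every alternative run called 0. The difference in 5′ UTR share was 3.70 to 6.04 percentage points, or 1.63 without replicate 2. Some genes that were not called changed sign. The log2 fold change of Dlg4 was -0.413 with the 6 libraries alone and the block and -0.064 with the block, and ranged from -1.165 without depolarized replicate 3 to 0.717 without depolarized replicate 1, with -0.706 without replicate 3. That of Itga2 was -0.285 with the 6 libraries and the block and -0.020 with the block, and ranged from -1.594 without depolarized replicate 1 to 0.873 without replicate 2. That of 1110012L19Rik ranged from -0.589 without replicate 3 to 0.229 without replicate 1, and that of Cnep1r1 was 0.056 on the transcript with the highest count. The cause of these changes was not tested. With 3 libraries a group and 2047327 CDS counts in the shallowest, small changes of low genes could not be resolved.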
